A study of Gallus gallus with 8 samples.

Results

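The sensory placode and eye miRNAs described here are the rows of the deposited table named miR-183, miR-184, miR-204, miR-211 and miR-375, in any arm. Rows were taken by name: the rule takes every row of miR-96, miR-182, miR-183, miR-184, miR-204, miR-211 and miR-375. The rule was set with earlier results of these data known. It found 6 of the 994 rows. miR-204 and miR-211 had identical values in all 8 libraries and were counted once, which leaves 5 separate measurements. Whether each of these rows holds all or only part of the reads they share is not known. Levels, read numbers and ratios of miR-204 are therefore those of a single row. No row was found for miR-96 or miR-182, which were therefore not analysed here, and miR-183 stands without its cluster partners. All 6 rows had reads in at least 1 library, and all but miR-184-5p were abundant enough to be tested.

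Small RNA was sequenced from ectoderm of the frontonasal ectodermal zone, which helps pattern the upper jaw, in untreated Rhode Island Red chick embryos. The later group was stage HH22 (Hamburger-Hamilton stage 22, 72 h of incubation), after Sonic hedgehog (SHH) is first expressed there, and the earlier group was HH18 (48 h), before its onset. Each stage had 4 libraries, numbered 1 to 4 at HH22 and 5 to 8 at HH18, and each library pooled 2 chicks. The question was which miRNAs differ between tissue taken before SHH appears and tissue taken after.

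Sensory placodes are thickenings of the head ectoderm that give rise to the nose, the lens, the inner ear and sensory ganglia, and the nasal placodes lie beside the frontonasal region. miR-183 belongs to a cluster with miR-96 and miR-182 that is transcribed as one unit and is known from sensory cells, among them hair cells of the ear, photoreceptors and olfactory neurons. miR-184 is known from the lens and cornea, and miR-204 from the lens, ciliary body and retinal pigment epithelium, with miR-211 as its close relative. miR-375 is known from endocrine cells, among them pancreatic islets and the pituitary, which itself forms in part from oral ectoderm next to the tissue sampled here.

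In the RefSeq annotation of the GRCg7b assembly, used only for names and gene order because the build behind the table is not given in the sources used here, MIR182, MIR96 and MIR183 follow each other with 0 other genes between them. MIR375 is listed between CFAP65 and CRYBA2, a crystallin gene of the lens. MIR204-1 lies inside TRPM3 and MIR204-2 inside TRPM1, both genes of cation channels, while MIR211 is listed between ABHD17A and REXO1. The table has 1 row for miR-204, so its values do not say which of the genes the reads came from.

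Summed over all rows of the table, identical rows included, the libraries held 46912793 to 88471588 reads at HH22 and 6276121 to 31318393 at HH18. Reads outside the table are not part of these totals. The deeper libraries were thus all from HH22, and depth and stage cannot be told apart. Levels are given as normalized counts, which are reads divided by the size factor of the library, or as CPM, the usual scaling of reads to the total of the library. Neither is scaled to length. Counting intervals and floors cover counting error only. Of 356 tested features, 52 passed the threshold of an adjusted p under 0.05 (14.6%; limma-trend with Benjamini-Hochberg adjustment), 35 of them higher at HH22 (9.83%) and 17 lower (4.78%). The balance turned to 24 higher and 47 lower under scaling that left out the 5 most abundant features, miR-183 among them. The number fell to 27, 29, 29 and 27 without HH22 replicates 1, 2, 3 and 4.

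The members differed widely in level. miR-183 was the 2nd or 3rd most abundant feature of every library. miR-375 ranked between 37 and 46, miR-184-3p between 55 and 93, and miR-204 with miR-211 came last of the tested members, at 234 in the library where they were scarcest. miR-183 averaged 53557 ± 9280 CPM at HH22 and 104356 ± 20942 CPM at HH18 (SD, n = 4 each). miR-375 averaged 208 ± 22.6 CPM at HH22 and 210.1 ± 48.4 CPM at HH18 (SD, n = 4 each). miR-184-3p averaged 36.4 ± 14.2 CPM at HH22 and 67.9 ± 22.5 CPM at HH18 (SD, n = 4 each). The rows of miR-204 and miR-211 each averaged 5.76 ± 1.85 CPM at HH22 and 5.21 ± 3.87 CPM at HH18 (SD, n = 4 each), and the order of these 4 levels was the same at both stages. Over the 8 libraries the ranges of neighbours in that order did not overlap. Samples are bulk tissue, so fewer cells of a type and less RNA per cell cannot be told apart.

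Of the 4 separate measurements tested, 1 passed the threshold, miR-183, which was lower at HH22, and 0 were higher. Of all tested features 14.6% passed, and the shares among features of like level are given below. The median log2 fold change of the members was -0.38, against 0.38 over all 356 tested features, and it covers 2 values below and 2 above 0. Features of like mean level had lower medians than all tested features. The median was 0.13 in the class of miR-183, miR-184-3p and miR-375 (mean of at least 1000 normalized counts). It was -0.06 in the class of miR-204. Scaled without the 5 most abundant features the medians were -0.85 for the members and -0.05 for all tested features, and on the deposited log2 values they were -0.25 and 0.06. Fold changes compare log2(normalized count + 1) between the stages, HH22 over HH18.

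**Figure D1:**
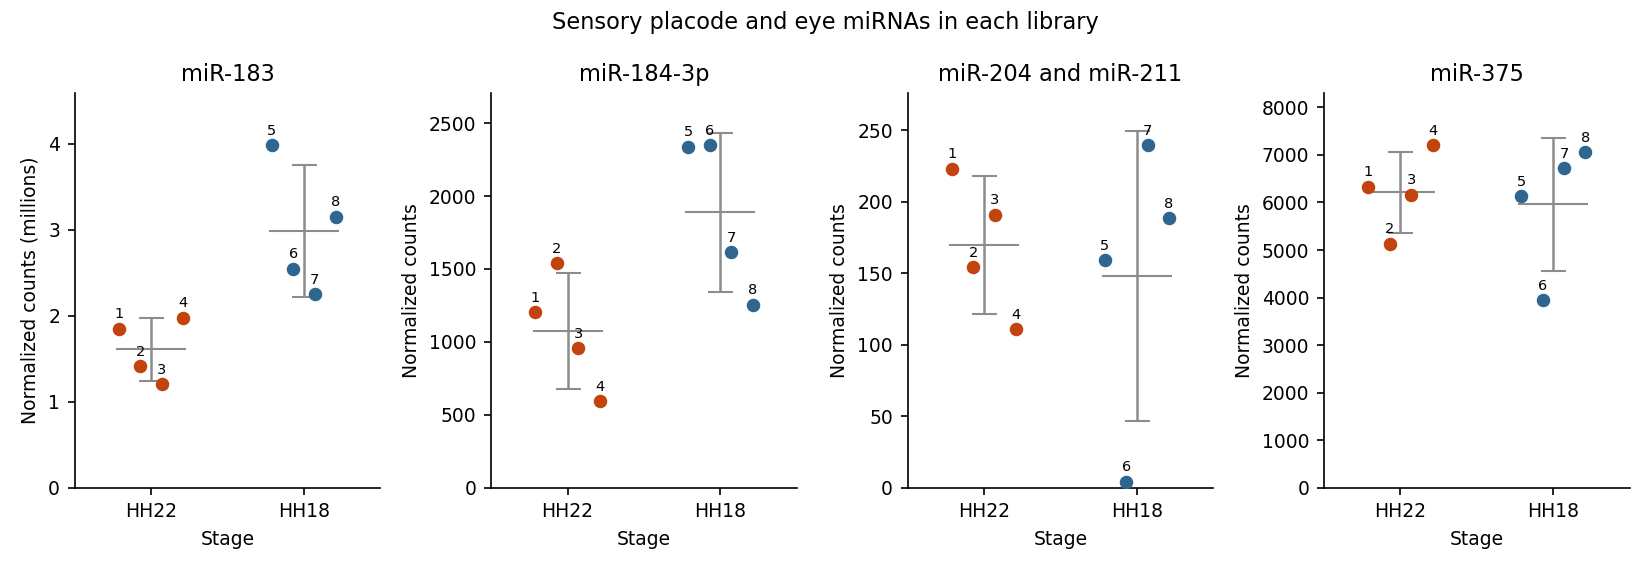
Normalized counts (y axis, from 0; miR-183 on its own larger scale) of the 4 tested members in each library at HH22 and HH18. Points are libraries with their replicate numbers, and the horizontal mark and bars are the mean and SD (n = 4). The stages separate for miR-183 alone, and HH18 replicate 6 lies near 0 for miR-204 and miR-211.

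miR-183, the hair cell and sensory neuron miRNA, was lower at HH22 than at HH18. It measured 1848884, 1414527, 1201737 and 1977244 normalized counts in HH22 replicates 1 to 4, against 3983673, 2547669, 2249907 and 3148633 in HH18 replicates 5 to 8. The stages did not overlap, a separation that 20.2% of all tested features showed. The highest HH22 library, replicate 4, came close to the lowest HH18 library, replicate 7. The means were 1610598 ± 363694 at HH22 and 2982470 ± 765009 at HH18 (SD, n = 4 each), so that HH22 held 0.540 of the HH18 level. The log2 fold change was -0.88 (SE 0.21, 95% interval -1.35 to -0.42, limma adjusted p = 0.0188).

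Shares and CPM depend on a total dominated by miR-100-5p, which took a mean of 70.3% of reads at HH22 and 64.5% at HH18. As a share of all reads, miR-183 took 4.34% to 6.23% at HH22 and 8.99% to 13.5% at HH18. HH18 replicate 5 was the high value, and the other HH18 libraries lay between 8.99% and 9.71%. Replicate 5 also had the largest share of blood and endothelial miRNAs (miR-126, miR-142, miR-144, miR-223 and miR-451), 0.0489% of its reads, against 0.00103% to 0.00638% at HH22 and 0.000929% to 0.00778% in the other HH18 libraries. The part of that difference in the miR-183 result was not tested. Without replicate 5 the log2 fold change of miR-183 was -0.73 (limma adjusted p = 0.0375). Without both HH18 replicates 5 and 6 it was -0.75 (limma adjusted p = 0.0585).

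The log2 fold change of miR-183 was -1.35 to -0.73 over the 19 alternative settings and fits. Leaving out libraries could not change its sign, because the stages did not overlap, and pseudocounts and filters hardly touch so abundant a feature. The call was lost when 1 library was left out in 3 of 8 cases, namely HH18 replicate 8 (limma adjusted p = 0.0539), HH22 replicate 2 (0.0636) and HH22 replicate 3 (0.0619). It was also lost without both HH18 replicates 5 and 6, the shallowest libraries (log2 fold change -0.75, limma adjusted p = 0.0585). Thinning every library to the depth of the shallowest left the log2 fold change at -0.91 (limma adjusted p = 0.0107). Thinning could hardly change a feature with 609281 reads in the shallowest library, so it is no test of depth here.

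The lens and cornea miRNA miR-184 was read almost wholly from its 3p arm. miR-184-3p measured 1202, 1539, 959 and 594 normalized counts in HH22 replicates 1 to 4, against 2339, 2350, 1614 and 1255 in HH18 replicates 5 to 8. The stages overlapped, since HH22 replicate 2 was above HH18 replicate 8. The means were 1073 ± 398 at HH22 and 1889 ± 545 at HH18 (SD, n = 4 each), a ratio of 0.568. Its log2 fold change of -0.85 was close in size to that of miR-183, but the spread between replicates was wider and it did not pass (SE 0.32, 95% interval -1.55 to -0.15 before adjustment, limma adjusted p = 0.109).

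miR-184-3p passed in 1 of 19 alternatives, under scaling that left out the 5 most abundant features, miR-183 among them (log2 fold change -1.32, limma adjusted p = 0.0141). That scaling moved the median log2 fold change of all tested features by -0.42. Leaving out HH22 replicate 4, the lowest library, changed the fold to -0.59, and leaving out both HH18 replicates 5 and 6, the highest, changed it to -0.49.

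The 5p arm, miR-184-5p, had 11 reads in HH22 replicate 4 and 3 reads in HH18 replicate 7. The same libraries held 910 and 2020 reads of the 3p arm. The other 6 libraries had 0 reads of the 5p arm, which allows a level of up to 0.0339 to 0.0639 CPM in the HH22 libraries and 0.115 to 0.478 CPM in the HH18 libraries (3 reads of the total). The arm was not tested.

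miR-204 and miR-211, known from the lens and pigment epithelium of the eye, were scarce. Each row measured 223.1, 154, 191 and 111 normalized counts in HH22 replicates 1 to 4, against 159, 4.18, 240 and 188 in HH18 replicates 5 to 8. HH18 replicate 6 was by far the lowest, and the other 7 libraries overlapped between the stages. The means were 170 ± 48.3 at HH22 and 148 ± 101 at HH18 (SD, n = 4 each). The log2 fold change was 1.08 and did not pass (SE 1.10, 95% interval -1.36 to 3.51, limma adjusted p = 0.584).

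That positive sign came with HH18 replicate 6, which held 1 read of miR-204 (exact 95% Poisson interval 0.0253 to 5.57). At the mean CPM of the other 3 HH18 libraries it would have held 43.3 reads. Replicates of a stage differed beyond counting error in general, so that interval is no test of this library against the others. Without it the HH18 mean was 195.8 ± 40.7 normalized counts (SD, n = 3), and HH22 was then lower by a log2 difference of -0.23 that did not pass (limma adjusted p = 0.776). The same library was low in other rows too. Among features with at least 100 normalized counts in each of the other HH18 libraries, 6 rows stood there under 0.1 of the lowest of those libraries, namely miR-204, miR-211, miR-18a-5p, miR-130c-3p, miR-302b-3p and miR-2129, which were named after their values were seen. By the same measure HH18 replicate 5 had 4 such rows of 139 and the other 6 libraries had 0. Replicates 5 and 6 were also the shallowest libraries, and the part of depth in these low values was not tested.

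miR-375, the islet and pituitary miRNA, had nearly the same mean at both stages. It measured 6334, 5135, 6162 and 7210 normalized counts in HH22 replicates 1 to 4, against 6129, 3943, 6725 and 7054 in HH18 replicates 5 to 8. The stages overlapped throughout, and HH18 replicate 6 was the lowest of the 8 libraries. The means were 6210.1 ± 851 at HH22 and 5963 ± 1400 at HH18 (SD, n = 4 each). The log2 fold change was 0.08 and did not pass (SE 0.19, limma adjusted p = 0.813). Its 95% interval of -0.35 to 0.51 leaves room for changes of that size in either direction. Without HH18 replicate 6 it stood at -0.10 (limma adjusted p = 0.687), and scaled without the 5 most abundant features at -0.38 (limma adjusted p = 0.231).

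**Figure D2:**
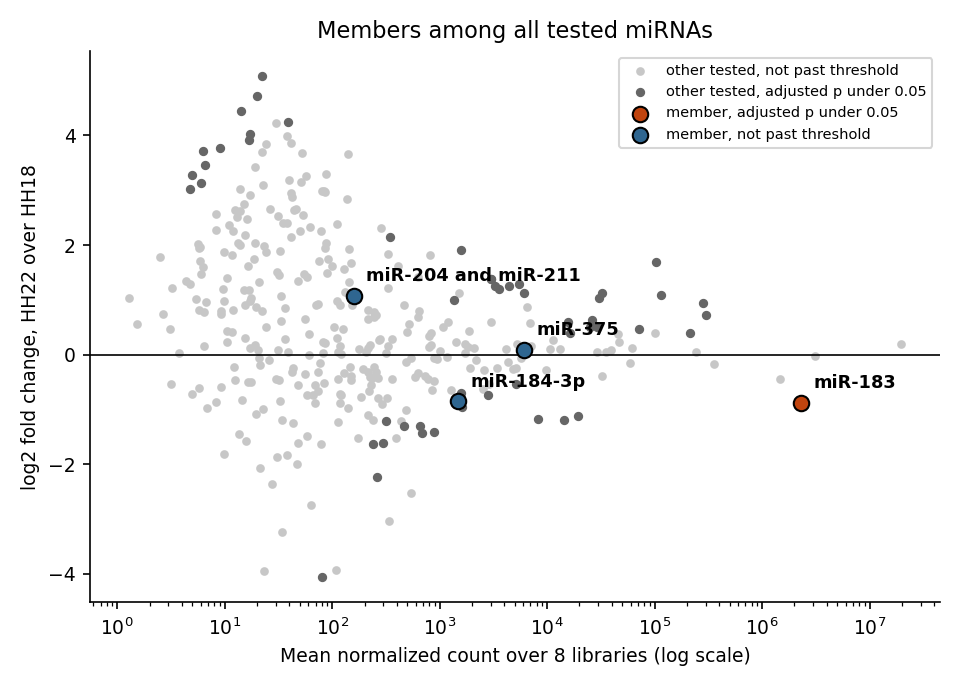
Log2 fold change, HH22 over HH18 (y axis), against the mean normalized count over 8 libraries (x axis, log scale) for all 356 tested features. Members are the large labelled points: miR-183 lies at -0.88 among the most abundant features, miR-184-3p at -0.85, miR-375 at 0.08 and miR-204 with miR-211 at 1.08.

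The share of features called depends on abundance, and the members were set beside features of like level. Of 79 tested features whose mean reached 1000 normalized counts, 30 passed (38%), 22 higher and 8 lower at HH22 (10.1% lower). miR-183, miR-184-3p and miR-375 belong to that class, and 1 of these 3 passed. Of 101 features with a mean of 100 to 1000, the class of miR-204, 9 passed (8.91%). The spread of the members between replicates was above the middle of their class. The residual SD on the log2 scale was 0.35 for miR-183, 0.52 for miR-184-3p and 0.31 for miR-375, against a median of 0.26 in their class. It was 1.88 for miR-204 against a median of 0.66, with HH18 replicate 6 at 1 read included. Without that library the SE of the miR-204 log2 fold change was 0.41, against 1.10 with it.

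Ratios between members within a library do not depend on how libraries are scaled. For each read of miR-375 there were 292, 275, 195 and 274 reads of miR-183 in HH22 replicates 1 to 4, against 650, 646, 335 and 446 in HH18 replicates 5 to 8. The stages did not overlap in this ratio. The log2 ratio of miR-375 over miR-183 averaged -8.00 ± 0.27 at HH22 and -8.97 ± 0.46 at HH18 (SD, n = 4 each), a difference of 0.97. The exact two-sided permutation p was 0.0286, the smallest that 4 against 4 can give. Adjusted over the 2 ratios tested, the permutation p was 0.0571 and did not pass. A ratio at that smallest p can pass only if the other ratio reaches it too. The missed threshold therefore does not decide whether the stages differ in this ratio. The difference lay between 0.84 and 1.16 with any 1 library left out, where the design cannot give a p under 0.0571.

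Within the lens and eye members, there were 5.39, 9.95, 5.01 and 5.34 reads of miR-184-3p for each read of miR-204 in HH22 replicates 1 to 4, against 14.6, 6.72 and 6.64 in HH18 replicates 5, 7 and 8. In HH18 replicate 6 the ratio rests on 562 reads of miR-184-3p and 1 of the miR-204 row, which may hold only part of the reads shared with miR-211. HH18 replicates 5 and 6 were the high values, and the stages overlapped. The log2 ratio of miR-204 over miR-184-3p averaged -2.62 ± 0.46 at HH22 and -4.47 ± 2.77 at HH18 (SD, n = 4 each), a difference of 1.85 that did not pass (exact two-sided permutation p = 0.171, adjusted p = 0.171). Without HH18 replicate 6 the difference was 0.49.

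The ratio of miR-184-3p over miR-183, given as a description with no test, averaged -10.61 ± 0.79 at HH22 and -10.64 ± 0.51 at HH18 on the log2 scale (SD, n = 4 each). The difference of 0.03 was far below the spread between libraries. Within each stage the ratio varied widely, with 919 to 3329 reads of miR-183 for each read of miR-184-3p at HH22 and 1083 to 2507 at HH18. The 2 miRNAs thus had a like mean change but did not keep a fixed proportion from library to library.

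**Figure D3:**
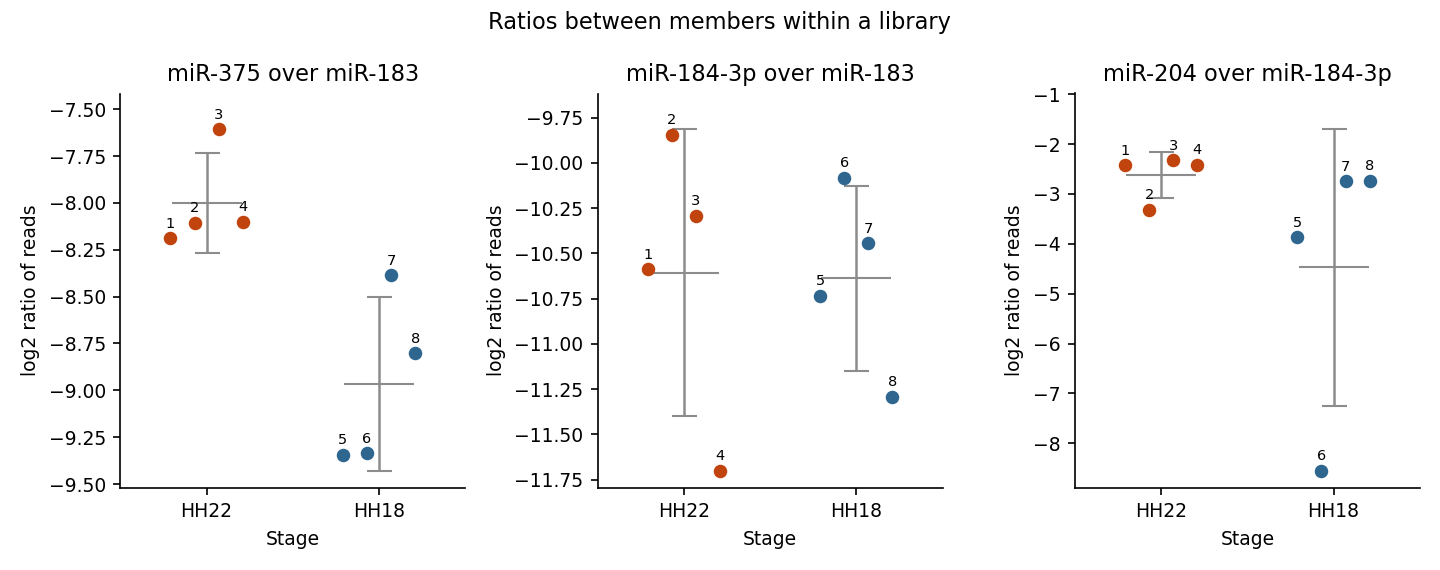
Log2 ratio of reads between 2 members within each library (y axis) at HH22 and HH18. Points are libraries with their replicate numbers, and the horizontal mark and bars are the mean and SD (n = 4). Stages separate for miR-375 over miR-183 (means -8.00 and -8.97) and overlap for the other ratios.

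The features whose levels ran most like those of each member were taken from 174 other features with a mean of at least 100, by Pearson correlation over the 8 libraries, which share their stage, depth and size factors. For miR-183 they were miR-92-3p (r = 0.98), miR-1306-3p (r = 0.95) and miR-92-5p (r = 0.93), with log2 fold changes of -0.45, -0.54 and -0.96. For miR-184-3p they were miR-6599-3p (r = 0.92), miR-1563 (r = 0.89) and miR-1677-5p (r = 0.88). For miR-204 they were miR-130c-3p, miR-18a-5p and miR-2129 (r = 0.98 each), all among the rows that were low in HH18 replicate 6. For miR-375 they were miR-302b-3p (r = 0.90), miR-2129 (r = 0.88) and miR-18a-5p (r = 0.86), again rows that were low in that library.

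Other miRNAs known from sensory organs (miR-7, miR-9, miR-24, miR-124, miR-181, miR-200, miR-205 and miR-429) moved in both directions. Of 20 tested rows 3 were higher at HH22, 2 were lower and 15 did not pass, with a median log2 fold change of 0.31. The 5 called of 20 stand beside 14.6% called among all tested features. All 5 had means of at least 1000 normalized counts, a class in which 38% of tested features were called. The balance was 2 higher and 3 lower when scaled without the 5 most abundant features. miR-181a-5p, which is expressed in the retina, averaged 368153 ± 42831 normalized counts at HH22 and 193955 ± 35565 at HH18 (SD, n = 4 each), a log2 fold change of 0.94 with an SE of 0.14 (limma adjusted p = 0.00151). miR-205a, a miRNA of stratified epithelia, averaged 158680 ± 38303 at HH22 and 73107 ± 6504 at HH18 (SD, n = 4 each), a log2 fold change of 1.09 with an SE of 0.16 (limma adjusted p = 0.000911). miR-181b-5p was higher by 0.46 on the log2 scale (SE 0.14, limma adjusted p = 0.0477), and miR-200a-3p, of the epithelial miR-200 family, had a log2 fold change of 0.40 that did not pass (SE 0.18, limma adjusted p = 0.199). Both were near 0 when scaled without the 5 most abundant features (-0.01 for miR-181b-5p and -0.07 for miR-200a-3p). By contrast, miR-181a-5p and miR-205a passed in 19 of 19 alternatives, with smaller changes of 0.47 and 0.63 in that scaling. Pseudocounts, filters and thinning hardly touch features this abundant, so those alternatives were no test of them. miR-181b-5p passed in 6 of 19, and its call was lost without any 1 of HH22 replicates 1, 2 and 4 (adjusted p = 0.139, 0.133 and 0.0690) or HH18 replicates 5, 6 and 8 (0.0814, 0.113 and 0.0714). The rows that fell were miR-9-5p, of neural progenitors, and miR-200b-5p, an arm of an epithelial precursor. The rows of this sensory organ list together took 2.26% to 3.34% of reads at HH22 and 1.61% to 2.66% at HH18. All but the miR-24 and miR-181 rows are counted again in the marker lists below, so the lists are not separate evidence.

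The tissue label was checked against marker miRNAs by their summed share of reads. The counts of called rows stand beside 9.83% higher and 4.78% lower among all tested features. Apart from the striated muscle row, the called rows had means of at least 1000 normalized counts. In that class 22 of 79 tested features were called higher and 8 lower, 38% in all. Epithelial miRNAs had reads in all 11 rows and took 1.39% to 2.07% at HH22 and 0.906% to 1.51% at HH18, with 2 rows higher and 1 lower of 11 tested. Neural miRNAs took 0.150% to 0.200% at HH22 and 0.156% to 0.269% at HH18, with 1 higher and 1 lower of 9 tested. Mesenchyme and cartilage miRNAs took 0.126% to 0.161% at HH22 and 0.0777% to 0.113% at HH18, with 3 of 5 tested higher. Of 8 tested blood and endothelial rows 0 passed. Hox cluster miRNAs took 0.0235% to 0.0355% at HH22 and 0.0176% to 0.0282% at HH18, with 1 of 4 tested higher. In that list miR-196-5p went the other way and did not pass (log2 fold change -3.92, limma adjusted p = 0.0740). Striated muscle miRNAs took at most 0.000282% of a library, with 9 of 14 rows at 0 and 1 of 3 tested higher. The called row, miR-133a-3p, averaged 9.92 normalized counts at HH22 and 0 at HH18. It met the filter through the deeper HH22 libraries alone, so its call is no evidence of a change. miR-375 and miR-7, taken as neuroendocrine markers, had 3 tested rows of which 0 passed, with 0.0331% to 0.0420% of reads at HH22 and 0.0353% to 0.0491% at HH18. Mean shares were higher at HH22 for epithelial (1.88% against 1.17% at HH18), mesenchymal (0.142% against 0.0990%), Hox cluster and muscle miRNAs. They were lower for neural, blood and endothelial, and neuroendocrine miRNAs. Of all these lists, only the mesenchymal one had ranges that did not overlap between stages. In normalized counts, a scale other than that of the shares, the median log2 fold change was 0.05 in the neural list and 0.08 in the neuroendocrine list. Both medians lay below the 0.38 of all tested features. Each of these lists had rows with changes above 0 and rows with changes below 0. Blood and endothelial shares at HH18 were 0.0489% and 0.00778% in replicates 5 and 6, against 0.000929% and 0.00110% in replicates 7 and 8. The part of these shifts in mean share in the lower miR-183 was not tested.

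**Figure D4:**
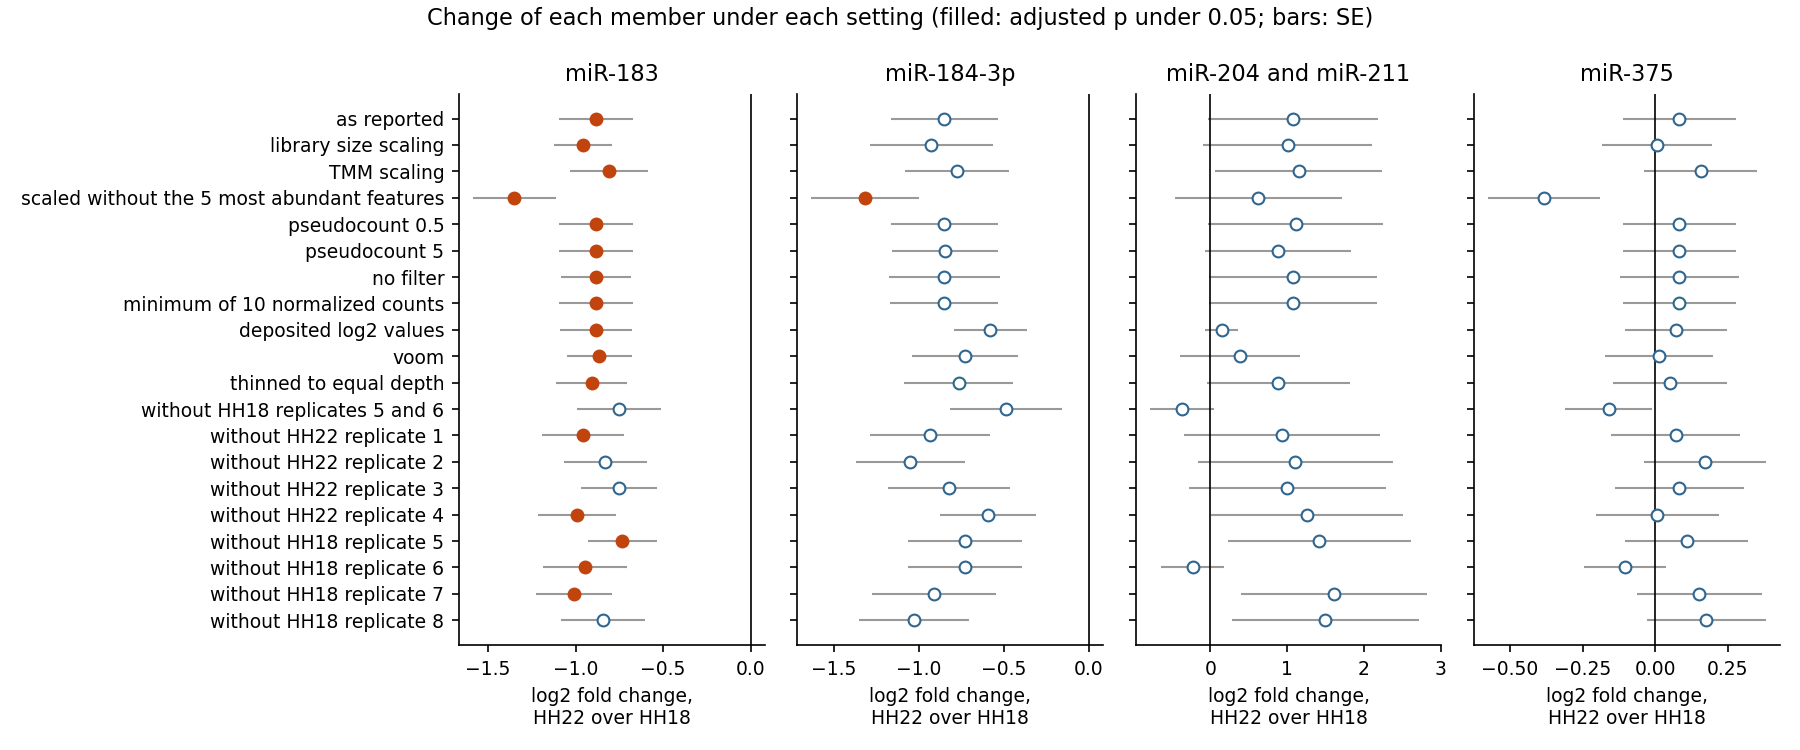
Log2 fold change of each tested member, HH22 over HH18 (x axis), as reported and under each of 19 alternatives (rows), with bars of 1 SE. Filled points passed the threshold: miR-183 stays below 0 throughout, miR-184-3p passes in 1 alternative, and miR-204 with miR-211 and miR-375 change sign without HH18 replicate 6.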

How the data were processed

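Small RNA libraries of chick frontonasal ectoderm were compared between HH22 and HH18 (n = 4 each). Per the labels' protocols, RNA came from a miRNeasy kit and libraries from an Illumina TruSeq small RNA kit. Tools named in the submitters' processing notes are kallisto 0.44.0, cutadapt 1.8.1 and bcl2fastq. The genome build is not given in the sources used here, nor is the reference. The deposited table holds log2 values made by the authors, and their transformation is not stated. Every library shared the lowest value, 8.52. Inverting the closed-form variance-stabilizing transformation gave whole multiples of 1 step per library for 100% of values above 0 (tolerance 0.001). That step was the inverse of a size factor, as computed by median of ratios over 200 features. Reads are therefore recovered estimated counts, and 1 read was worth 0.336 to 4.18 normalized counts.

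Features with at least 1 normalized count in at least 4 libraries (356) were tested with limma-trend on log2(normalized count + 1), two-sided, adjusted over all of them. Ratios used reads + 0.5 and exact permutation over 70 splits. Alternatives were other scalings, pseudocounts, filters, voom, thinning and leaving out libraries. The scripts were tested on simulated data. Members and lists were chosen with earlier results of these data known. The members were found by miRNA number and all are named. The most-like features are the 3 with the highest correlation, and of the sensory organ list the 4 most abundant rows are given with values. Replicates of a stage differed by more than counting noise (at least 187 in chi-square per degree of freedom), so each library counts once, and p-values describe pools of 2 chicks. Versions were matplotlib 3.10.9, scipy 1.17.1, pandas 2.3.3, numpy 2.4.6, Python 3.11.15, limma 3.58.1 and R 4.3.3.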

Additional observations from a re-analysis of the deposited data

Results flagged for a closer look

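Single libraries stood apart from the other 3 of their stage in 4 of 28 groups of values checked. Chance gives about 1 in 20 for a single group, but these groups re-express the same members and are not independent. The count is therefore no test of an excess. HH18 replicate 5 had the highest share of miR-183, 13.5% of its reads. HH22 replicate 3 had the highest log2 ratio of miR-375 over miR-183, -7.61. HH22 replicate 2 had the lowest HH22 log2 ratio of miR-204 over miR-184-3p, -3.31. HH18 replicate 6 had a log2 ratio of miR-375 over miR-204 of 9.30, against 4.81 to 5.26 in the other HH18 libraries, where its miR-204 value is 1 read.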

How the results depend on the processing

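No paired analysis was possible because the replicate numbers 1 to 8 are all different. The number of features past the threshold was 52, 24 with no filter, and 27 to 66 with 1 library left out (27, 29, 29 and 27 without HH22 replicates 1, 2, 3 and 4). Scaled without the 5 most abundant features 71 passed, 24 higher and 47 lower. miR-183 kept its call in 15 of 19 alternatives, and leaving out libraries could not change its sign. It had -0.75 without both HH18 replicates 5 and 6, and -1.01 to -0.73 with 1 library left out. miR-184-3p kept its sign in 19 of 19 and passed in 1, at -1.32, scaled without the 5 most abundant features. miR-204 turned to -0.37 without HH18 replicates 5 and 6, and ranged from -0.23 to 1.62 with 1 library left out. miR-375 turned to -0.38 when scaled without the 5 most abundant features and to -0.16 without HH18 replicates 5 and 6, and ranged from -0.10 to 0.18 with 1 library left out. The cause of these turns was not tested. The stage difference in the log2 ratio of miR-375 over miR-183 was 0.84 to 1.16 over 9 alternatives. These could not change its sign, because the stages did not overlap and adding 1 read hardly moves it. With the 5 most abundant features other than the members taken out of the total, which still holds miR-183, miR-183 took 41.9% of the reads at HH22 and 63.8% at HH18, miR-184-3p 0.0284% and 0.0415%, miR-204 0.00448% and 0.00320%, and miR-375 0.164% and 0.130% (HH22 and HH18 in each case). Since the miR-183 part of that total differs between the stages, the shares of the other members in it give no direction. A floor of 3 reads stood at 1.01 to 1.96 normalized counts at HH22 and 2.40 to 12.5 at HH18, which limits miR-184-5p and, in HH18 replicate 6, miR-204.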
